A study of Drosophila melanogaster with 4 samples.

Results

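The HP1c-enriched regions of chromosome 4, the small dot chromosome of Drosophila melanogaster, were taken as every enriched row placed on chromosome 4 in the 3 deposited region lists. They are 248 of 18423 enriched rows in all, with 81 of 5586 in ChIP replicate 1, 63 of 5946 in ChIP replicate 2 and 104 of 6891 in the combined list of the replicate set. None of the 11 rows named as depleted lay on this chromosome. HP1c was profiled by ChIP-seq in wild-type Oregon-R larvae (Oregon-R-modENCODE) of the third instar, with 2 ChIP and 2 input DNA libraries. Chromatin was immunoprecipitated with a rabbit polyclonal antibody, affinity-purified and raised against a fragment of HP1c made in E. coli. The labels name no dissected tissue, so a region may come from some or all larval tissues. They also do not say whether the replicates were separate collections, so the SD between them may be technical. The lists give no read numbers, so depth is unknown. As a list of the replicate set, the combined list is no further replicate.

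HP1 proteins bind chromatin through an amino-terminal chromodomain, and a carboxy-terminal chromoshadow domain pairs them with each other and with partner proteins. HP1a marks pericentric heterochromatin, while HP1c is known mainly from euchromatin, where it is found with the zinc finger proteins WOC and ROW. Chromosome 4 is unusual in that active genes are interspersed with repeats in chromatin rich in HP1a and in the chromosome-specific protein POF. Its sequence runs from the centromere-proximal end at low positions to the telomeric end. The comparison arms were 2L, 3L, 3R and X. These are meant by the arms throughout, and 2R is not among them.

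The high coverage of chromosome 4 lay in wide regions. Regions wider than 5000 bp covered 9.29% of chromosome 4 in replicate 1 and 10.1% in replicate 2, against 1.15% and 1.59% of the arms. That was 7.20 ± 1.25 times the arms (SD, n = 2). Regions of 5000 bp or less covered 10.97% of chromosome 4 in replicate 1 and 8.35% in replicate 2, against 10.5% and 11.3% of the arms, a ratio of 0.89 ± 0.22 (SD, n = 2). The narrower regions thus covered chromosome 4 and the arms together to extents that differed by less than the spread between replicates, and in opposite directions in the 2 replicates. On X they covered 12.4% in replicate 1 and 13.2% in replicate 2, more than on chromosome 4 in both. In all, regions covered 1.74 times as much of chromosome 4 as of the arms in replicate 1 and 1.43 times as much in replicate 2. X came nearest, with 14.3% in replicate 1 and 16.0% in replicate 2, against 20.3% and 18.4% of chromosome 4. With 1 such chromosome and 2 ChIP libraries of 1 group, no difference between chromosome 4 and the arms was tested, and all are descriptions.

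**Figure D1:**
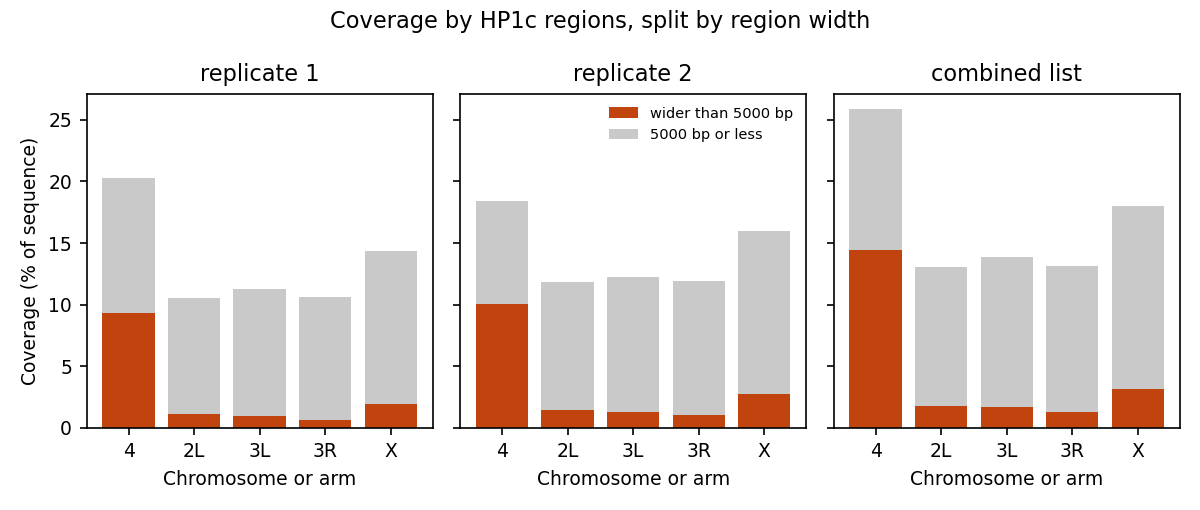
Coverage by HP1c regions in percent of each sequence, for chromosome 4 and the arms 2L, 3L, 3R and X, in each of the 3 lists. The lower part of each bar is regions wider than 5000 bp, which reach 9.29%, 10.1% and 14.4% of chromosome 4 and at most 3.18% of any arm (X, combined list).

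Wide regions were a large share of the regions on chromosome 4. They numbered 18 of 81 in replicate 1 (22.2%), 21 of 63 in replicate 2 (33.3%) and 26 of 104 in the combined list (25%). Over the whole lists, regions of that width made up 4.56%, 5.68% and 5.94%. Of the arms, X came nearest, with 5.66% in replicate 1, 7.55% in replicate 2 and 7.29% in the combined list. Per unit of sequence, chromosome 4 carried 13.3 and 15.5 wide regions per Mb in the replicates, against 1.81 and 2.49 on the arms. Of the bases in regions, 45.9% in replicate 1 and 54.7% in replicate 2 lay in wide regions on chromosome 4, against 9.89% and 12.4% on the arms.

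The median width differed between the lists. It was 2432 bp on chromosome 4 against 2269 bp on the arms in replicate 1, 3508 bp against 2309 bp in replicate 2 and 2115 bp against 2261 bp in the combined list. The direction therefore turned in the combined list. The upper end lay higher on chromosome 4 in all 3 lists: the 90th percentile of width was 6930 bp, 7107 bp and 7207 bp on chromosome 4 in replicate 1, replicate 2 and the combined list, against 3922 bp, 4163 bp and 4145 bp on the arms. The widest single region of chromosome 4 measured 11081 bp in replicate 1 and 7958 bp in replicate 2, below the widest of the arms at 14273 bp and 14535 bp, both on X. In the combined list it measured 19377 bp, above the widest of the arms at 16355 bp.

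The widest places were mostly shared, although their division into regions differed. In replicate 1 the 5 widest regions lay at 80029 to 91109 (11081 bp), 1233433 to 1243065 (9633 bp), 1045243 to 1054743 (9501 bp), 148055 to 156523 (8469 bp) and 198960 to 206723 (7764 bp). In replicate 2 they lay at 950138 to 958095 (7958 bp), 198890 to 206450 (7561 bp), 1046156 to 1053609 (7454 bp), 1070804 to 1078124 (7321 bp) and 679547 to 686759 (7213 bp). Of the 18 wide regions of replicate 1, 17 overlapped a wide region of replicate 2, and likewise 17 of the 21 of replicate 2 overlapped one of replicate 1. On the arms the counts were 147 of 177 and 147 of 244. More than 1 region of the other replicate met 3 of the 18 wide regions of replicate 1 (16.7%) and 3 of the 21 of replicate 2 (14.3%), against 7.34% and 22.5% on the arms, so the direction differed between the replicates.

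The widest combined region of chromosome 4 shows such a division. It ran from 71810 to 91186, over 19377 bp, with a score of 2.14. Replicate 1 listed it as 2 regions, 72676 to 79605 with a score of 1.44 and 80029 to 91109 with 2.32. Replicate 2 listed it as 3 regions, 73130 to 79668 with 1.74, 80099 to 86338 with 1.64 and 86646 to 91149 with 3.34. The outer ends agreed within 454 bp at the low side and within 40 bp at the high side, and both replicates scored the part nearest the high end above the rest. The other 4 widest combined regions were 1045264 to 1054686 (9423 bp), 1233402 to 1242520 (9119 bp), 1070510 to 1079586 (9077 bp) and 198048 to 206754 (8707 bp). Each of them was overlapped by both replicates.

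Each of the 13 full windows of 100 kb on chromosome 4 held HP1c regions, with coverage from 7.93% ± 0.91 (SD, n = 2) at 700 to 800 kb up to 29.8% ± 3.3 at 1200 to 1300 kb, with a median of 20.5%. On the arms 88 of 978 full windows (9.00%) held no region in either replicate, 242 (24.7%) had a mean coverage under 5%, and the median was 11.2%. On chromosome 4 no full window was under 5%. The arms nevertheless reached higher, up to 46.5% in a window on X, and the coefficient of variation between full windows was 0.29 on chromosome 4 and 0.74 on the arms. The 13 windows are neighbours on 1 chromosome, and whether 13 neighbouring windows of an arm vary as little was not tested.

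**Figure D2:**
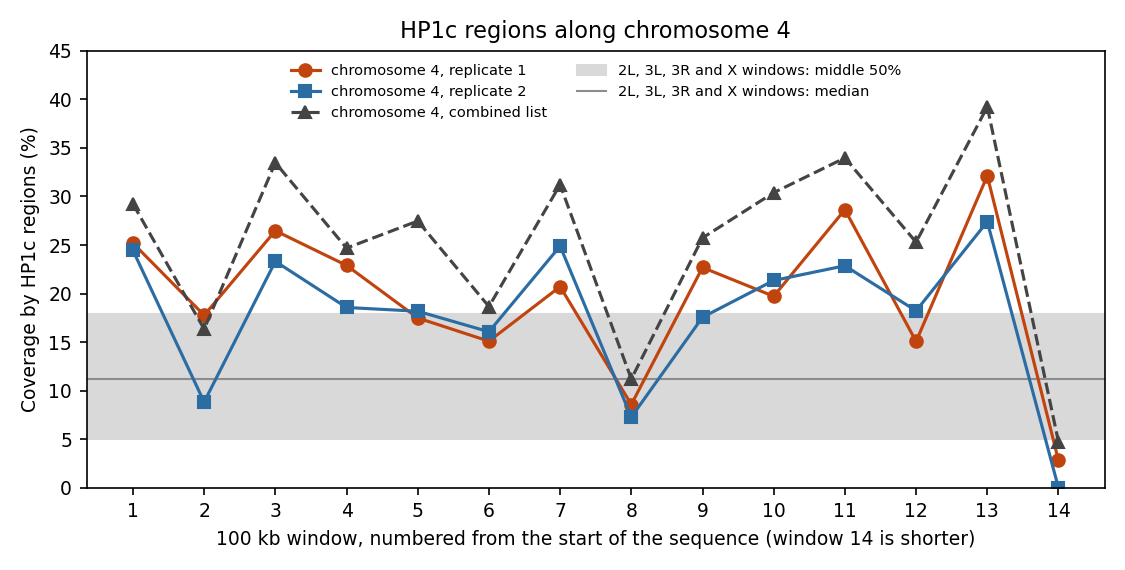
Coverage of chromosome 4 by HP1c regions in percent, for windows of 100 kb numbered from the centromere-proximal end, in replicate 1, replicate 2 and the combined list, over the middle 50% (5.03% to 17.9%) and the median (11.2%) of replicate means in windows of 2L, 3L, 3R and X. All 13 full windows hold regions, window 8 is the lowest of them and window 13 the highest, and the replicates are farthest apart in window 2.

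After 1200 to 1300 kb, the best covered windows were 1000 to 1100 kb with 25.8% ± 4.1 (SD, n = 2), 200 to 300 kb with 24.9% ± 2.2 and 0 to 100 kb with 24.8% ± 0.53. The dense window at 1200 to 1300 kb held 9 regions in each replicate and 12 in the combined list. The window at 0 to 100 kb reached its coverage with 3 regions in replicate 1 and 4 in replicate 2, all of them within 61362 to 91149. Regions wider than 5000 bp numbered 2 in each replicate at 1200 to 1300 kb and 3 in each replicate at 0 to 100 kb. High coverage thus came with wide regions in both windows, and with more regions of 5000 bp or less at 1200 to 1300 kb. The short last window, 1300 to 1351.86 kb at the telomeric side, had the lowest coverage, with 2.83% in replicate 1 and 0 in replicate 2. The replicates differed most at 100 to 200 kb, with 17.8% in replicate 1 and 8.83% in replicate 2, where replicate 1 listed 6 regions and replicate 2 listed 2.

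Near the ends of the sequence the lists differed. The first region of both replicates began at nearly the same place, 61376 in replicate 1 and 61362 in replicate 2. The combined list held 2 earlier regions, 4916 to 5996 with a score of 2.18 and 45866 to 47086 with 1.05, which neither replicate listed. At the telomeric side, the last region of replicate 1 was 1339090 to 1340555 with a score of 0.76 and that of the combined list was 1339100 to 1340542. The last of replicate 2 ended at 1282984, leaving 68.9 kb of the sequence without a region in that list.

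The longest gaps of chromosome 4 were shorter than the longest on the arms. The longest stretch with no region in any list ran from 719507 to 792878, over 73.4 kb. The next were 511245 to 562693 (51.4 kb), 1283079 to 1326519 (43.4 kb), 91187 to 131651 (40.5 kb) and 275215 to 315473 (40.3 kb). On the arms the longest gap between neighbouring regions was 404 kb in both replicates, on 3L. Gaps over 50 kb were 3 of 80 (3.75%) in replicate 1 and 4 of 62 (6.45%) in replicate 2 on chromosome 4, against 10.5% and 8.96% of gaps on the arms. These gaps lie between neighbouring regions, so the ends of the sequences are not counted. On chromosome 4 the ends left out were 61.4 kb before the first region in both replicates. After the last region they were 11.3 kb in replicate 1 and 68.9 kb in replicate 2. Chromosome 4 is 1.35 Mb long and the arms 22.4 to 27.9 Mb each, and the part of length in the longest gap was not tested.

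Typical spacing relative to the arms differed between the lists. The median gap was 7309 bp in replicate 1 on chromosome 4 and 7097 bp on the arms, and 11940.5 bp against 6650 bp in replicate 2. In the combined list it was 5329 bp against 5687 bp. The chromosome 4 median thus lay above that of the pooled arms in the replicates and below it in the combined list. By arm the direction was mixed. In replicate 1 the chromosome 4 median lay above that of X (5500 bp). It lay below those of 2L (8106.5 bp), 3L (7719 bp) and 3R (7770 bp). In replicate 2 it lay above every arm, of which 3L was highest (7734 bp). In the combined list it lay above X (4337 bp) and below 2L (6479 bp), 3L (6272 bp) and 3R (6283 bp). Closely placed neighbours, less than 1000 bp apart, made up 12.5% and 16.1% of gaps on chromosome 4 in the replicates, against 12.2% and 12.7% on the arms. Region density likewise was 1.33 times that of the arms in replicate 1 and 0.97 times in replicate 2, so its direction differed between the replicates, and it was 1.39 times in the combined list.

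The strongest region of chromosome 4 was the same in every list. It lay at 807124 to 810690 in the combined list, 3567 bp wide with a score of 3.57. In replicate 1 it ran from 807152 to 810671 with 3.29, and in replicate 2 from 807121 to 810676 with 3.79. It ranked 63rd of 6891 in the combined list, 79th of 5586 in replicate 1 and 70th of 5946 in replicate 2. Chromosome 4 holds only 104, 81 and 63 of these regions, so the ranks alone show no lack of high scores. Its ends differed by at most 31 bp between the replicates.

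The 9 next combined regions that overlapped both replicates scored between 2.56 and 3.05. They were 977848 to 984762 (score 3.05, 6915 bp), 463394 to 468088 (2.94, 4695 bp), 1045264 to 1054686 (2.90, 9423 bp), 225498 to 231954 (2.88, 6457 bp) and 713662 to 719430 (2.80, 5769 bp). They went on with 886532 to 891810 (2.70, 5279 bp), 590336 to 593492 (2.65, 3157 bp), 61068 to 68624 (2.59, 7557 bp) and 1139764 to 1145882 (2.56, 6119 bp). Of these 10 regions, 7 were wider than 5000 bp in the combined list. Of those, the one at 886532 measured 4153 bp in replicate 1 and 4700 bp in replicate 2. The one at 1139764 measured 2877 bp and 3205 bp. The 10 regions were spread over 9 of the 14 windows, with 2 in 800 to 900 kb and 1 in each of the other 8. The region at 977848 placed 92nd in replicate 1 (score 3.25) and 400th in replicate 2 (3.11), and that at 225498 placed 289th (2.81) and 557th (2.94). The region at 1045264 went the other way, from 348th in replicate 1 (2.71) to 247th in replicate 2 (3.33). It lay below the region at 977848 in replicate 1 and above it in replicate 2. Order within the strong group was thus not the same in the replicates.

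High-scoring regions were wider on chromosome 4 than on the arms, and low-scoring ones were not. Among regions above the 75th percentile of the arms' scores in the same list, the median width was 4884.5 bp in replicate 1 and 5546 bp in replicate 2 on chromosome 4, against 2717 bp and 2795.5 bp on the arms, which was 1.89 ± 0.13 times as wide (SD, n = 2). Among regions at or below the arms' median score, it was 1844 bp and 2052.5 bp on chromosome 4 against 1983 bp and 2014 bp on the arms, a ratio of 0.97 ± 0.063. The combined list gave 6453 bp against 2847 bp for high scores and 1706 bp against 1938 bp for low ones. Across regions of chromosome 4, width and score had a Spearman rho of 0.83 in replicate 1, 0.78 in replicate 2 and 0.68 in the combined list, against 0.78, 0.77 and 0.77 on the arms, as a description over regions of the same library.

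Scores of chromosome 4 were divided between low and high values. Placed in the 25% classes of the arms' scores from lowest to highest, the 81 regions of replicate 1 numbered 22, 25, 10 and 24. The 63 regions of replicate 2 numbered 12, 18, 9 and 24, and the 104 of the combined list 35, 31, 11 and 27. The class just above the arms' median was therefore the smallest in each list, at 12.3%, 14.3% and 10.6% where the arms hold 25% by construction. Both replicates placed 24 regions in the highest class and 10 in the highest 10% of the arms' scores. They differed in the lower classes, where replicate 1 had 47 regions and replicate 2 had 30.

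**Figure D3:**
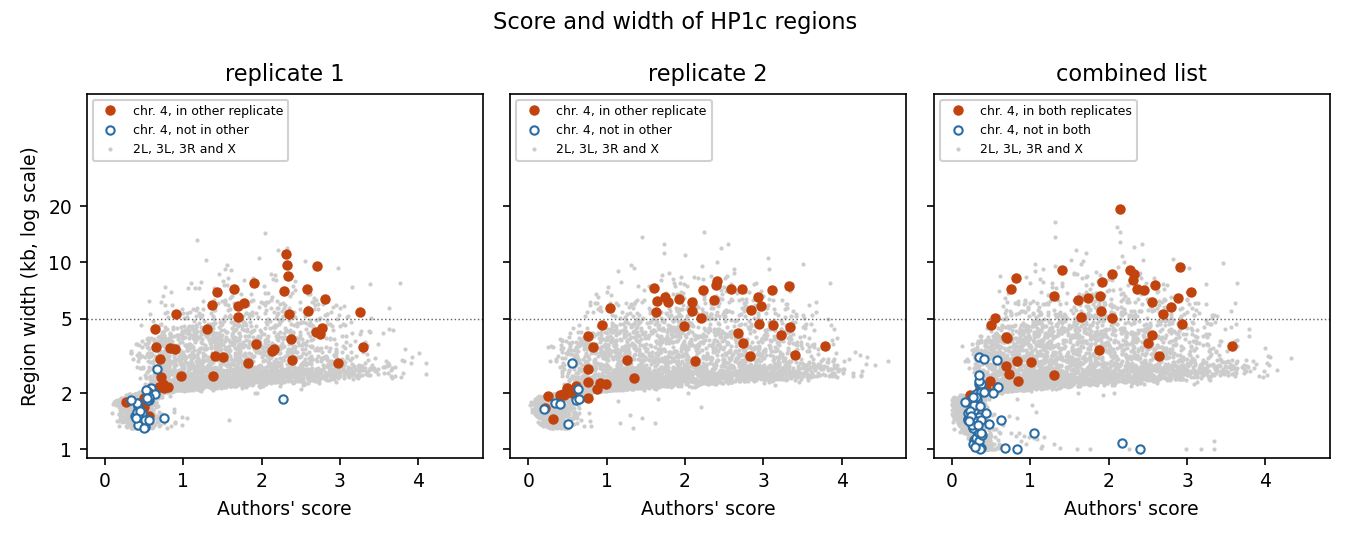
Width of each HP1c region in kb (log axis) against the authors' score, in each list, with chromosome 4 regions as large points (filled where the other replicate, or for the combined list both replicates, had an overlapping region) over the regions of 2L, 3L, 3R and X in grey. The dotted line marks 5 kb. Every chromosome 4 region above it is filled, and the open points sit mostly at low score and small width.

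Many regions of replicate 1 on chromosome 4 had no counterpart in replicate 2, whereas most of replicate 2 had one in replicate 1. Of the 81, 53 overlapped a region of replicate 2 by at least 1 bp (65.4%, exact Clopper-Pearson 95% interval 54.0 to 75.7), against 90.4% of the whole list and 90.9% on the arms. In the other direction 55 of 63 regions of replicate 2 overlapped replicate 1 (87.3%, 76.5 to 94.4), near the 83.7% of the whole list and 83.9% on the arms. Of the combined regions, 49 of 104 overlapped both replicates (47.1%, 37.2 to 57.2), against 71.1% of the whole list. The intervals cover counting error over regions only, and regions of a library are not independent. Chromosome 4 regions are counted within the whole lists, of which they are a small part.

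**Figure D4:**
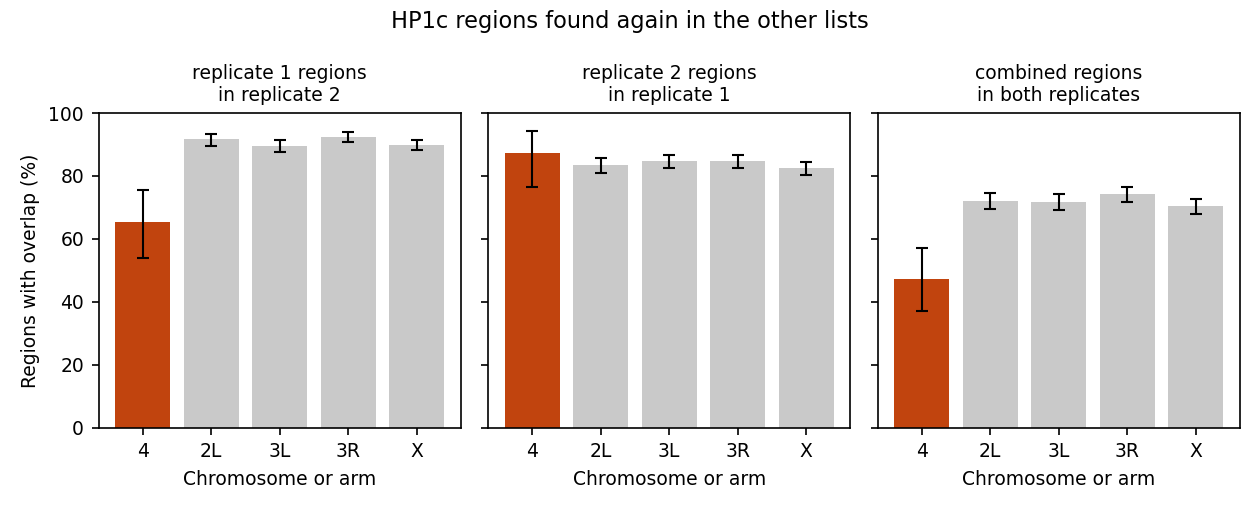
Percent of regions with an overlap of at least 1 bp, for chromosome 4 and the arms 2L, 3L, 3R and X, with exact 95% binomial intervals over regions. Chromosome 4 is at 65.4%, 87.3% and 47.1% in the 3 panels, below all 4 arms in the first and last and above them in the middle one.

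The regions found in 1 replicate were weak and narrow, with 1 exception. The 28 of replicate 1 without overlap measured 1305 to 2695 bp, with a median score of 0.52, against a median of 3503 bp and 1.51 for the 53 with overlap. The 8 of replicate 2 without overlap measured 1359 to 2889 bp, with a median score of 0.53, against 4080 bp and 1.74 for the 55 with overlap. All 18 and 21 wide regions were overlapped, as were all wide regions of the arms. Above the arms' median score, 33 of 34 regions of replicate 1 (97.1%) and 33 of 33 of replicate 2 were overlapped, against 99.7% and 99.3% on the arms.

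The difference between chromosome 4 and the arms in replicate 1 lay mainly in its low-scoring regions. At or below the arms' median score, 20 of 47 regions of replicate 1 on chromosome 4 were overlapped (42.6%), against 82.1% on the arms. For the lowest 25% of the arms' scores the shares were 6 of 22 (27.3%) and 74.3%, and for the next 25% they were 14 of 25 (56.0%) and 89.9%. For replicate 2, 22 of 30 low-scoring regions were overlapped (73.3%), against 68.5% on the arms. Its lowest 25% lay above the arms, with 8 of 12 (66.7%) against 51.7%, and its next 25% below them, with 14 of 18 (77.8%) against 85.2%.

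The exception was a narrow region of replicate 1 with a high score. It ran from 1278421 to 1280273, over 1853 bp, with a score of 2.28 that placed it 735th in that list. Replicate 2 listed nothing there, and the combined region at 1277428 to 1280442 scored 0.58. Its neighbour at 1281118 to 1282984 was the strongest region that replicate 2 listed alone, with a score of 0.65. The next strongest of replicate 1 alone were 1339090 to 1340555 (0.76) and 1226838 to 1229532 (0.67), so the highest lay well apart from them. In replicate 2 the next were 509154 to 511244 (0.64) and 474616 to 476455 (0.61).

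Regions without overlap often lay near some region of the other replicate, shared or not, with shares within 5000 bp near those of the arms. The nearest region of the other replicate lay a median of 3901 bp from the 28 of replicate 1, and 17 of the 28 were within 5000 bp, with the farthest at 56105 bp. For the 8 of replicate 2 the median was 2294.5 bp and 5 were within 5000 bp. On the arms the medians were 3955 bp and 3986 bp. There 57.4% and 56.3% were within 5000 bp, against 60.7% and 62.5% on chromosome 4.

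Joined across the 3 lists, the members formed 107 separate places. Of these, 49 were in all lists and held 73.2% of the bases in places, with a median extent of 5044 bp. A further 24 were in replicate 1 and the combined list (median 1842 bp), 7 in replicate 2 and the combined list (1905 bp), 24 in the combined list alone (1219 bp) and 3 in replicate 1 alone (1572 bp). All 63 regions of replicate 2 and 78 of 81 of replicate 1 (96.3%) were overlapped by the combined list, near the 98.9% and 98.3% of the arms. The common places were thus 45.8% of all places but held most of the bases. Places were not joined on the arms, so whether this split differs there was not tested. As the nearest measure, combined regions that overlapped both replicates held 75.2% of the combined bases on chromosome 4 and 82.5% on the arms. In base pairs, the replicates shared 211.734 kb of chromosome 4, which is 77.3% of replicate 1 and 85.0% of replicate 2, against 90.7% and 81.7% on the arms. The Jaccard index was 0.68 on chromosome 4 and 0.75 on the arms.

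At the common places the replicates gave similar extents and scores. In 39 of the 49, each list held 1 region. Over the 42 pairs in which a region of each replicate met only the other, starts differed by a median of 136 bp and ends by 179 bp, against 65 bp and 62 bp over 3782 such pairs on the arms. Ends were thus less exact on chromosome 4, where regions are also wider. Replicate 2 scored higher in 32 of the 42 pairs (76.2%) and was wider in 29 (69.0%), close to 75.6% and 68.7% on the arms. The scores of the 42 pairs had a Spearman rho of 0.97, against 0.90 on the arms, given as a description over pairs from the same 2 libraries.

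**Figure D5:**
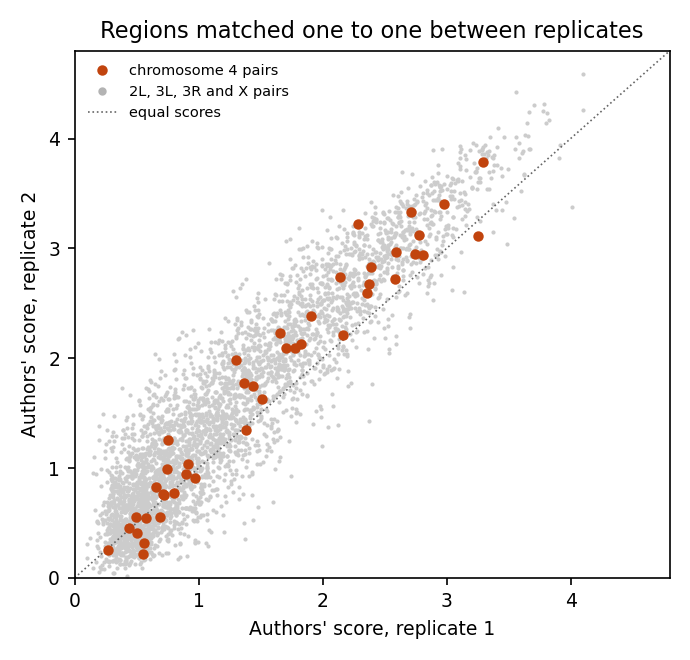
The authors' score in replicate 2 against that in replicate 1 for regions that met only each other, 42 pairs on chromosome 4 over 3782 pairs on 2L, 3L, 3R and X in grey, with a dotted line at equal scores. Of the chromosome 4 pairs, 32 lie above the line.

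Part of the combined list on chromosome 4 had no counterpart in either replicate. These regions numbered 24 of 104 (23.1%, exact 95% interval 15.4 to 32.4), against 9.32% of the whole list and 8.52% on the arms. They were narrow, from 1001 to 2015 bp, with a median score of 0.36, and together took 8.74% of the bases of the combined list on this chromosome. The replicate lists did not reach so low. Their smallest regions on chromosome 4 measured 1305 bp in replicate 1 and 1359 bp in replicate 2, and 1301 bp on the arms in both. How much of the missing overlap goes with this difference in smallest width was not tested. The 3 highest were 699754 to 700754 with a score of 2.40, 4916 to 5996 with 2.18 and 45866 to 47086 with 1.05. The first of these, at 1001 bp, has the smallest width that the combined list holds on chromosome 4 and the arms, and its score placed it 841st of 6891. It lay between the strong regions 688060 to 693096 and 713662 to 719430, which both replicates listed.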

How the data were processed

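HP1c ChIP and input libraries of Oregon-R larvae were sequenced, and the lists of enriched regions of the ChIP libraries were used. Reads were aligned with Bowtie 0.12.7, per the submitters' processing notes, and the build is FlyBase release 5, per the file headers. The deposited score of each region is the authors' own value, used here to rank regions and set classes within a list. Its scale, the region caller and threshold, how replicates were joined, how reads from repeats were placed and the read depth are not stated in the labels or headers. The other deposited values are region positions in bp. The gene table at hand is of release 6, so no gene or sequence is given.

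Coverage is the percent of a sequence inside regions, assembly gaps included. Overlap required 1 bp, and windows were 100 kb. No significance test was run, because the design holds 1 group of 2 ChIP libraries. Named regions were the 10 highest combined regions in both replicates, the 5 widest of each list, the 5 longest gaps, the 3 highest of each replicate without overlap and of the combined list in neither, and the first and last of each list. Others, named as their parts or neighbours, were chosen after their values were seen. The members and rules were chosen with earlier results of these data known. Alternatives were a stricter overlap (50% of both regions), the higher-scoring 50% of regions, merging of regions under 500 bp apart, arms without X, each replicate alone, the combined list, and windows of 50 and 200 kb. Interval steps were tested on simulated data. Computations used Python 3.11, pandas 2.3.3, numpy 2.4.6 and scipy 1.17.1.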

Additional observations from a re-analysis of the deposited data

How the results depend on the processing

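Of 39 alternative values other than those of a replicate alone, 21 moved by less than 1 SD between replicates or stayed inside their 95% interval, and 18 moved further, where the Jaccard index, which has no error here, counts as moved at any change. Chromosome 4 stayed above the arms in coverage in every setting run, with ratios from 1.43 to 1.79. Regions per Mb relative to the arms, 1.15 on average, fell below 1 without replicate 1 (0.97) and was 1.33 without replicate 2. With X left out of the arms it was 1.22 on average. In the upper 50% by score, coverage of chromosome 4 was 13.2%, regions per Mb 24.8, the median width 5190 bp, the share wider than 5000 bp 55.3%, the median gap 20692 bp and the median score percentile among the arms 68.7. Overlap was then 94.1% for replicate 1, 97.0% for replicate 2 and 78.9% for combined regions in both, with a Jaccard index of 0.82. Fewer, stronger regions are part of that setting's construction. In the combined list, coverage was 25.8%, regions per Mb 76.9, the median width 2115 bp, the median gap 5329 bp and the median score percentile 35.5, and the cause was not tested. Merging regions under 500 bp apart gave a Jaccard index of 0.684. The highest window was 49.6% for 50 kb and 22.8% for 200 kb windows, against 29.8% for 100 kb, since smaller windows vary more by construction.

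Leaving out a replicate leaves the other's value: coverage ranged from 18.4% to 20.3%, median width from 2432 to 3508 bp, the wide share from 22.2% to 33.3%, the median gap from 7309 to 11940.5 bp and the median score percentile from 39.9 to 56.9. With 2 replicates either value lies within 1 SD of the mean by construction, so this says nothing about stability. No paired analysis was possible because the results come from no test, and the region lists used are of the ChIP group only. The lists hold no read numbers, so how far depth limits the weak regions of either replicate cannot be said.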
